A study of Mus musculus with 8 samples.

Results

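Sections of GL261 glioma, a mouse glioma line grown in mouse brain, were compared between the combination of CpG-STAT3ASO with anti-PD1 and PBS, the vehicle. The members are the 2 combination sections and the 2 PBS sections of a series of 8 sections, chosen by their titles. All mice had been implanted with GL261 cells, had received 4 intracranial treatments and were killed on day 21. CpG-STAT3ASO is an antisense oligonucleotide against Stat3 joined to a CpG sequence, and anti-PD1 is an antibody to the checkpoint receptor PD-1. Doses, mouse strain, number of animals and section level are not given in the labels, so p-values measure only the spread between sections. In the limma fits this spread was pooled over all 8 sections, including those of the other treatments. The readout was single-molecule fluorescence in situ hybridization of a panel of 100 genes, which gives the position of each transcript molecule.

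STAT3 is a transcription factor that carries growth and immunosuppressive signals in tumour cells and in tumour-associated myeloid cells. CpG DNA is taken up by cells that carry TLR9, an endosomal receptor whose signalling induces inflammatory cytokines and costimulatory ligands. Blocking PD-1 releases T cells from inhibition by its ligand PD-L1, and the myeloid cells of glioma are a mixture of resident microglia and macrophages that come from the blood.

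Each section was divided into square bins of 360 pixels, and a bin with 20 or more molecules counted as tissue. Bins were sorted by their molecules of Mki67, a marker of cycling cells, plus Birc5, which encodes the mitotic survival factor survivin. Bins with under 10 were called low-proliferation, those with 10 to 99 intermediate and those with 100 or more dense. A section gave 2155 to 2405 tissue bins and 1665452 to 6987530 gene molecules, and codes read as false positives made up 0.113 to 0.289% of all molecules. The panel holds no gene of the lists drawn up for neurons, oligodendrocytes, astrocytes or endothelium, and no marker specific to GL261, so the labelled tissue could be checked only through immune and proliferation genes. In a section, fewer cells of a type and less RNA per cell cannot be told apart.

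The combination sections differed from each other more than the PBS sections did, and this touches most results below. Across the 100 genes of whole sections the correlation of log2 share was 0.92 between the combination sections and 0.97 between the PBS sections. Combination 2 held 1631 molecules per tissue bin and combination 1 held 766. The genes with wide gaps between them are described after the comparison with PBS.

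Large continuous areas of dense bins were present in both PBS sections and in neither combination section. Dense bins made up 32.2 and 44.8% of tissue bins in PBS 1 and 2, and 1.01 and 3.24% in combination 1 and 2. The groups did not overlap (38.5 ± 8.92% against 2.13 ± 1.58%, SD, n = 2; difference -36.3 points). The exact permutation test gave p = 0.333, the smallest that 6 assignments of 2 against 2 sections allow. In PBS 1 the 714 dense bins formed 10 patches, where touching bins belong to 1 patch, and the largest held 366 bins. In PBS 2 one patch held 964 of 965 dense bins. In combination 1 the 22 dense bins formed 21 patches, of which 20 were single bins, and in combination 2 the 78 dense bins formed 46 patches of at most 7 bins. The dense bins of the combination sections were therefore scattered rather than continuous.

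**Figure D1:**
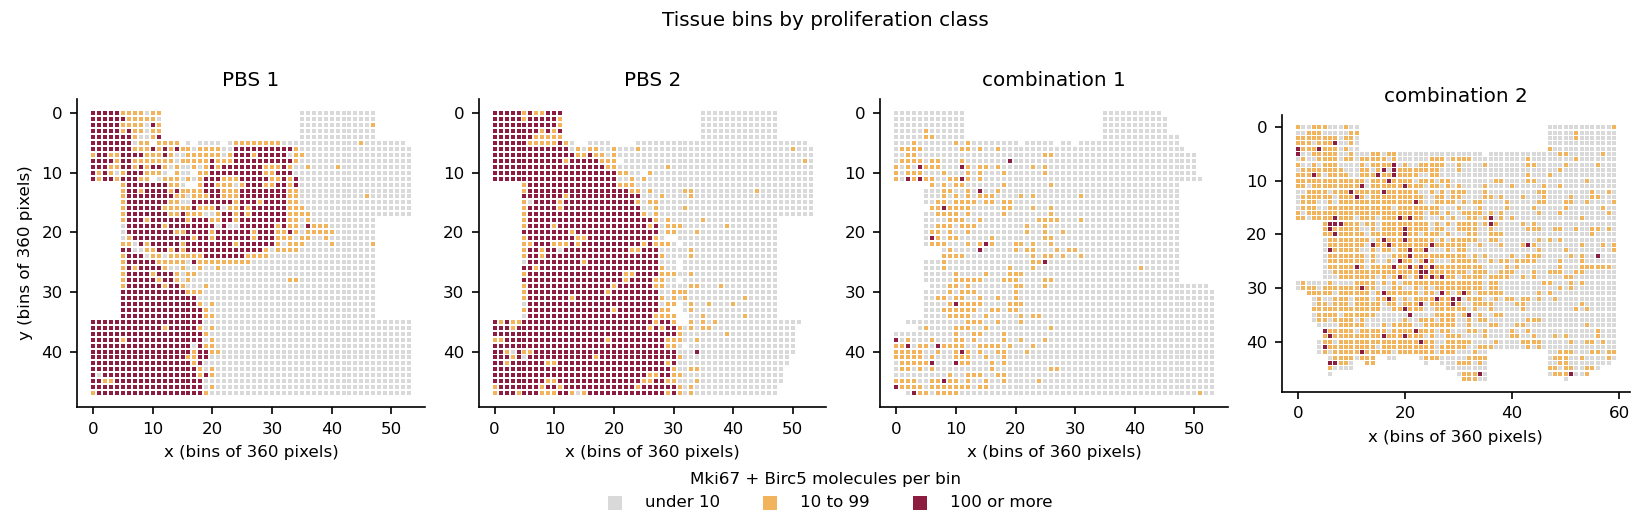
Tissue bins of the 4 sections at their place in the section (x and y in bins of 360 pixels), coloured by Mki67 plus Birc5 molecules per bin. Dense bins form continuous areas in PBS 1 and PBS 2, with largest patches of 366 and 964 bins, and lie scattered in combination 1 and combination 2, with largest patches of 2 and 7 bins.

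The dense bins of the combination sections also held fewer of the transcripts that define the class. The median dense bin held 321 and 379 molecules of Mki67 plus Birc5 in PBS 1 and 2, and 125 and 117.5 in combination 1 and 2. The richest bin of a section held 1598 and 1190 with PBS, and 255 and 325 with the combination. Both measures separated the groups without overlap. They use the counts that define the classes, so they describe the dense bins and are no separate evidence. At 200 or more molecules the PBS sections kept 528 and 821 dense bins, and the combination sections kept 3 and 6.

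The bins that were not dense were divided differently in the 2 combination sections. Intermediate bins made up 15.0 and 10.2% of tissue with PBS, 15.4% in combination 1 and 45.9% in combination 2. Low-proliferation bins made up 52.8 and 45.0% with PBS, 83.6% in combination 1 and 50.9% in combination 2. The groups overlapped for the low class, and for the intermediate class combination 1 lay only just above PBS 1. The mean difference of the intermediate class was 18.0 points, but 33.3 without combination 1 and 2.78 without combination 2. That of the low class was 18.3 points, but 1.95 without combination 1 and 34.7 without combination 2.

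The shares of molecules held by the classes differed as well. Dense bins held 74.4 and 85.1% of gene molecules with PBS, and 1.74 and 5.12% with the combination. A tissue bin held 1887 and 3242 molecules with PBS, and 766 and 1631 with the combination (exact permutation p = 0.333). Within the dense class a bin held 4366 and 6161 molecules with PBS, and 1317 and 2576 with the combination. A low-proliferation bin held 637 and 764 molecules with PBS, and 709 and 1284 with the combination. Because of these shifts a gene's share of molecules and its molecules per bin can move in opposite directions, so both are given for each class.

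Across whole sections the limma fit called 18 genes by share of molecules and 4 per bin. By share 14 of 100 genes were higher (14%) and 4 lower (4%), with a median log2 difference of 0.58 over all genes. Per bin 1 was higher (1%) and 3 lower (3%), with a median of -0.56. Adgre1 was called higher and Birc5, Gpnmb and Mki67 lower on both scales. By share and not per bin, Cd8a, the marker of cytotoxic T cells, was called higher (log2 2.72, limma adjusted p = 0.0173). It kept that call in 13 of 17 other settings. Per bin the groups overlapped for Cd8a, at 964 and 721 molecules per 1000 tissue bins in PBS 1 and 2. Combination 1 held 806 and combination 2 held 7619. The chemokine gene Cxcl10 was called lower by share and not per bin (log2 -2.94, limma adjusted p = 0.0191), and kept its call in 15 of 17. Mki67 stood at 93181 and 137120 molecules per 1000 bins in PBS 1 and 2, and at 5877 and 17923 in combination 1 and 2. All further comparisons of classes leave out Mki67 and Birc5, which define them.

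Low-proliferation tissue, the class with the most bins in both combination sections, gained transcripts of 4 genes. All 4 can be transcribed in macrophages, and Gpnmb also in some tumour cells. Other macrophage genes were not called. Per bin 4 of 96 genes were higher (4.17%) and 0 lower (0%), by limma's test with Benjamini-Hochberg adjustment. An unadjusted p under 0.05 was reached by 20 genes. The 4 genes were Msr1, which encodes a scavenger receptor of macrophages, Adgre1, the gene of the F4/80 antigen of macrophages, Cd68, which encodes a lysosomal glycoprotein of phagocytes, and Gpnmb, which encodes a transmembrane glycoprotein of lipid-laden macrophages and of some tumour cells. By share of molecules Msr1 alone was higher (1.04%) and none was lower (0%), with 12 genes at an unadjusted p under 0.05. The median log2 difference of all genes was 0.62 per bin and 0.17 by share.

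Promoter sequences are shown for Gpnmb and Cd68, the members of these 4 that are in the RefSeq promoter table, to place the genes and to mark a sequence element that both hold. Each window runs from 250 bases before the transcription start to 30 after it, 5′ to 3′ on the gene's strand, with matches to TGANTCA, the AP-1 element, in capitals. Gpnmb lies on the forward strand at chr6:49036268-49036547 and Cd68 on the reverse strand at chr11:69666141-69666420 of GRCm38.p6. The bases after the start are transcribed and the others lie upstream of the gene.
Gpnmb: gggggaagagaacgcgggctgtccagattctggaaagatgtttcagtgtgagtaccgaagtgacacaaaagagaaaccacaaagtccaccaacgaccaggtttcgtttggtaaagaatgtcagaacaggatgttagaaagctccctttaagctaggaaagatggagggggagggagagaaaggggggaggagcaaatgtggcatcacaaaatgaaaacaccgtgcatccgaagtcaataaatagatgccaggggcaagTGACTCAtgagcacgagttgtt
Cd68: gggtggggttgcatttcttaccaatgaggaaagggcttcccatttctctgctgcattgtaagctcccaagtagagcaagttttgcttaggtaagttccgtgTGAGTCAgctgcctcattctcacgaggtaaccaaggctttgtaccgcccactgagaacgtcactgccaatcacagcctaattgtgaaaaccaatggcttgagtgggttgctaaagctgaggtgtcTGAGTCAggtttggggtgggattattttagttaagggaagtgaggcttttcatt
Gpnmb holds 1 match and Cd68 holds 2, counted on both strands. The motif was chosen after the data had been seen, and 7.46% of the 32851 promoters of this length in the table hold it. Neither window holds TTCNNNGAA, the STAT element, on either strand, which 7.83% of these promoters hold. A match or its absence describes these letters only.

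Of these 4 genes Msr1 had the largest difference. It stood at 97.3 and 84.5 molecules per 1000 bins in PBS 1 and 2, and at 862 and 1535 in combination 1 and 2. Both combination sections lay above both PBS sections, 13.2-fold in the means (log2 difference 3.65, SE 0.563, limma adjusted p = 0.0194). By share it stood at 153 and 111 CPM (molecules of the gene per 1000000 molecules of the class) with PBS and at 1216 and 1196 with the combination, so that the combination sections were close to each other on this scale (3.20, SE 0.588, adjusted p = 0.0318). The share of low-proliferation bins that held at least 1 Msr1 molecule was 5.97 and 5.77% with PBS, and 24.0 and 31.7% with the combination.

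Adgre1 and Cd68 rose from a higher level. Adgre1 stood at 1108 and 1891 molecules per 1000 low-proliferation bins with PBS, and at 5182 and 6583 with the combination (3.92-fold, log2 2.01, SE 0.358, limma adjusted p = 0.0297). Cd68 stood at 4647 and 4090 with PBS, and at 13334 and 16014 with the combination (3.36-fold, log2 1.74, SE 0.261, adjusted p = 0.0194). The groups did not overlap for either gene. By share neither was called, with log2 differences of 1.56 for Adgre1 (adjusted p = 0.235) and 1.29 for Cd68 (adjusted p = 0.281). Gpnmb stood at 1881 and 1296 with PBS and at 6284 and 5979 with the combination (3.86-fold, log2 1.97, SE 0.377, adjusted p = 0.0331), again without overlap. In the PBS sections 96.6% of all Gpnmb molecules lay in dense bins. Which cells carried Gpnmb in low-proliferation bins was not tested.

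Tmem119 and Csf1r, the measured genes of the microglia list, did not show a difference of this size in the same tissue. Tmem119, a microglial marker, stood at 5504 and 7730 molecules per 1000 low-proliferation bins with PBS and at 8081 and 7074 with the combination (log2 0.21, 95% interval -0.46 to 0.88). Csf1r, the receptor on which microglia and macrophages depend, stood at 22476 and 27277 with PBS and at 32204 and 34779 with the combination (log2 0.43, interval -0.12 to 0.99, adjusted p = 0.390). For Csf1r both combination sections lay above both PBS sections. In dense bins Tmem119 stood at 12720 in PBS 1 and 75993 in PBS 2, with 12682 and 13128 in combination 1 and 2. In the PBS sections 79.5% of all Tmem119 molecules lay in dense bins, and which cells carried Tmem119 was not tested. A test of the difference between Tmem119 or Csf1r and the 4 genes that rose was not made.

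Of 5 monocyte and macrophage genes 2 rose per low-proliferation bin (Adgre1, Cd68) and 3 did not pass, with a median log2 difference of 1.74 where all genes had 0.62. Over all 96 genes 4 were higher (4.17%), and these 4 are the same genes that the lists below count. Tgfbi, which encodes an extracellular matrix protein made by monocytes, stood at 1845 and 2164 with PBS and at 5557 and 26086 with the combination without passing (adjusted p = 0.0894). The others, Cd14 and Ccr2, are named after their values were seen, and by share the groups overlapped for both. Cd14 stood at 616 and 571 CPM with PBS, 1292 in combination 1 and 299 in combination 2. Ccr2 stood at 274 and 567 CPM with PBS, 555 in combination 1 and 1652 in combination 2. Of 4 scavenger and lipid-handling genes 2 rose (Msr1, Gpnmb) and 2 did not pass, with a median of 1.77. Spp1, which encodes osteopontin, stood at 2557 and 1833 with PBS and at 8839 and 4675 with the combination (adjusted p = 0.0788), and Fabp5, a fatty acid-binding protein gene, at 2825 and 2062 against 3330 and 2819. No gene passed among 8 T cell, 9 cytotoxic and NK, 7 dendritic cell, 7 checkpoint, 7 costimulation or 8 chemokine genes in this class. Their median log2 differences were 0.67, 0.98, 0.76, 0.89, 0.83 and 1.59, per bin. Lists of this size are too small for an absence of calls to differ from the 4.17% of all genes.

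**Figure D2:**
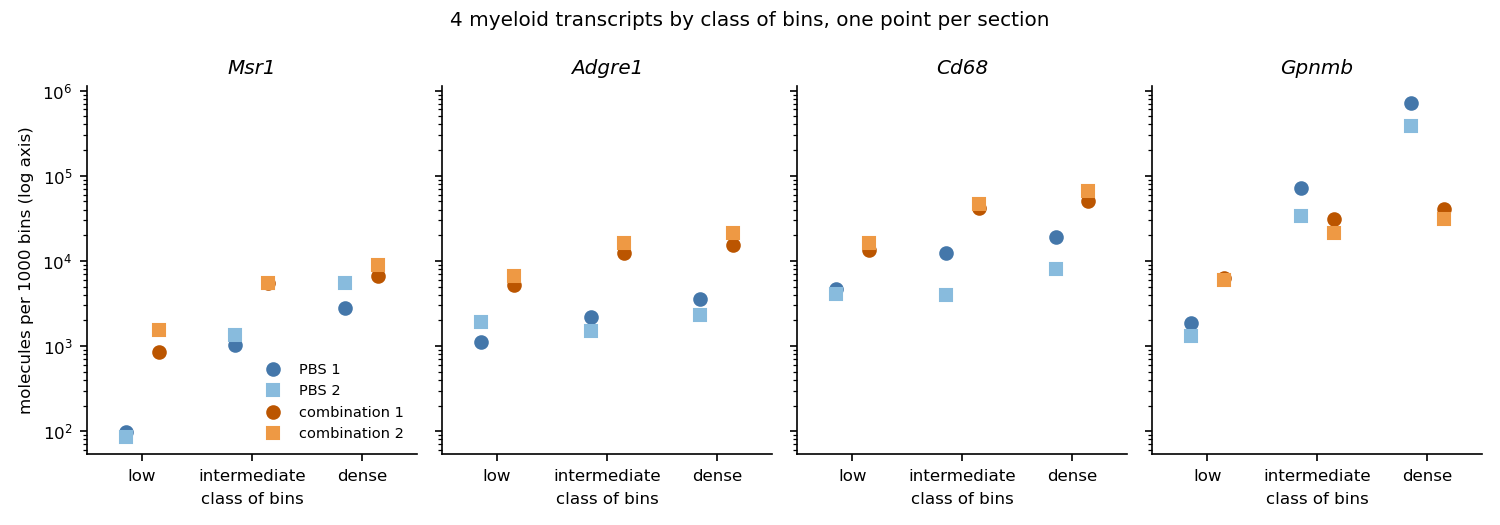
Molecules per 1000 bins (log axis) of Msr1, Adgre1, Cd68 and Gpnmb in low-proliferation, intermediate and dense bins, 1 point per section. Msr1, Adgre1 and Cd68 lie higher with the combination in every class, and Gpnmb lies higher in low-proliferation bins and lower in dense bins, where it falls from 720470 and 379520 to 40727 and 31154.

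The low class did not hold the same bins in both groups, so its levels were also set out by narrower ranges of proliferation. Bins without any Mki67 or Birc5 molecule numbered 672 and 486 with PBS and 920 and 327 with the combination, and bins with 1 to 9 numbered 500 and 484 against 898 and 896. At 0 molecules Adgre1 stood at 979 and 1728 per 1000 bins with PBS and at 3624 and 2920 with the combination. At 1 to 9 molecules it stood at 1282 and 2054 against 6777 and 7920. The groups did not overlap in either range, and the same holds for Cd68 and Msr1. Cd68 stood at 4226 and 3745 against 8282 and 5764 at 0 molecules, and at 5212 and 4436 against 18511 and 19754 at 1 to 9. Msr1 stood at 56.5 and 32.9 against 322 and 153 at 0 molecules, and at 152 and 136 against 1415 and 2039 at 1 to 9. The gap between the groups was thus wider in the bins with a few proliferation transcripts, a description with no test.

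Gpnmb showed the same order but a small gap in the quietest bins. At 0 molecules of Mki67 and Birc5 it stood at 647 and 698 with PBS and at 2087 and 813 with the combination. At 1 to 9 molecules it stood at 3540 and 1897 with PBS, and at 10584 and 7864 with the combination. From 10 to 29 molecules the groups overlapped, at 27415 and 7365 against 24718 and 19779. Above that the order turned, with 316590 and 185070 against 43316 and 26611 at 100 to under 200 molecules.

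**Figure D3:**
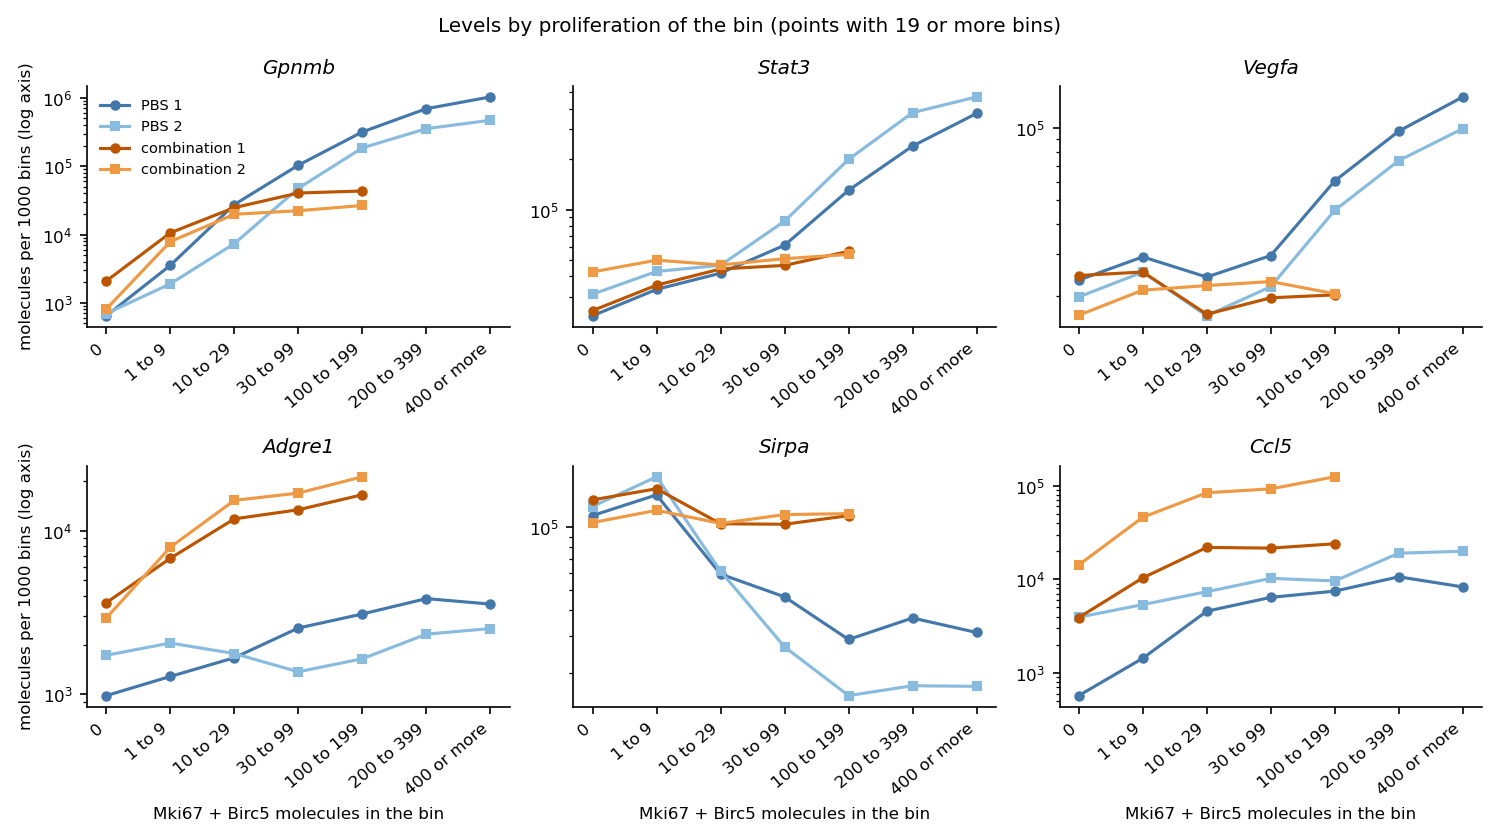
Molecules per 1000 bins (log axis) of 6 genes against the Mki67 plus Birc5 molecules of the bin, 1 line per section, for ranges with at least 19 bins. In bins with 100 to under 200 molecules Gpnmb (316590 and 185070 against 43316 and 26611), Stat3 and Vegfa lie higher in the PBS sections, and Sirpa, Adgre1 and Ccl5 lie higher in the combination sections.

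Under the combination Msr1, Cd68 and Gpnmb were highest in the low-proliferation bins nearest to dense bins. In low-proliferation bins 1 to 3 bins from a dense bin, Msr1 stood at 232 and 290 molecules per 1000 bins with PBS and at 3339 and 4274 with the combination. At 4 to 9 bins it stood at 78.6 and 71.4 against 779 and 560, and at 10 or more bins at 59.2 and 40.6 against 78.6 and 131. Cd68 stood at 6981 and 3023 with PBS and at 28462 and 35066 with the combination at 1 to 3 bins, and at 3974 and 3770 against 5730 and 5927 at 10 or more. Both genes thus differed most between groups near dense bins, although the dense bins of the combination lay in patches of at most 7 bins. Gpnmb stood at 8332 and 2817 against 22049 and 15729 at 1 to 3 bins, and overlapped between groups at 10 or more bins, at 229 and 780 against 849 and 386.

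Within low-proliferation tissue these transcripts also lay in the same bins more often under the combination. Spearman's rho between Msr1 and Gpnmb over bins was 0.16 and 0.12 in PBS 1 and 2, and 0.55 and 0.57 in combination 1 and 2, over 970 to 1818 bins a section. Between Adgre1 and Ccl5, which encodes a chemokine for T cells and monocytes, rho was 0.24 and 0.31 with PBS, and 0.68 and 0.74 with the combination. Between Msr1 and Sirpa it was 0.0027 and -0.08 with PBS, and -0.15 and -0.09 with the combination. Adgre1 and the microglial marker Tmem119 had a rho of 0.52 and 0.59 with PBS, and of 0.66 and 0.40 with the combination. For Cd68 and Tmem119 it was 0.51 and 0.52 with PBS, and 0.62 and 0.32 with the combination. Whether microglia or macrophages carried Adgre1 and Cd68 was not tested. Bins of a section share tissue and depth, and sparse genes cannot correlate strongly, so these are descriptions of the sections. Msr1 had 114 and 82 molecules in all PBS low-proliferation bins and 1567 and 1877 in those of the combination.

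In intermediate bins Adgre1 was called higher on both scales and no gene was lower. It stood at 2168 and 1505 molecules per 1000 bins with PBS and at 12448 and 16111 with the combination (7.78-fold, log2 2.97, SE 0.465, limma adjusted p = 0.0251). By share the difference was 2.67 (SE 0.512, adjusted p = 0.0462). It was 1 of 93 genes called per bin and 1 of 93 called by share (1.08% each, with 0% lower), and 18 genes had an unadjusted p under 0.05 on each scale. Cd68 stood at 12359 and 4027 with PBS and at 41552 and 46952 with the combination (log2 2.65, adjusted p = 0.0670). Cd4, the gene of the helper T cell coreceptor, stood at 2362 and 3000 with PBS, 17319 in combination 1 and 5738 in combination 2 (adjusted p = 0.121). For Cd68 and Cd4 the groups did not overlap, but neither passed. The T cell receptor gene Cd3d overlapped between groups in these bins, at 95.8 and 268 with PBS and 191 and 411 with the combination. With PBS 87.6% of Cd4 molecules lay in low-proliferation bins. Cd4 is therefore not read as a measure of helper T cells here, and which cells carried it was not tested.

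Dense bins differed in both directions, and here the scale decided which direction prevailed. By share 19 of 96 genes were higher (19.8%) and 1 was lower (1.04%), with a median log2 difference of 0.85 over all genes. Per bin 4 were higher (4.17%) and 13 lower (13.5%), with a median of -0.64. The 5 genes called on both scales were Adgre1, Cd68, Sirpa and S1pr1, higher, and Ly6a, lower. The combination sections gave only 22 and 78 dense bins, with 28983 and 200942 molecules, against 714 and 965 bins with PBS.

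Of the genes higher on both scales, Adgre1 stood at 3538 and 2310 molecules per 1000 dense bins with PBS and at 15273 and 21526 with the combination (6.29-fold, log2 2.66, SE 0.478, limma adjusted p = 0.0115). Sirpa, which encodes the phagocyte receptor for the signal CD47 and is also transcribed by neurons, stood at 32539 and 16982 with PBS and at 113640 and 116830 with the combination (4.65-fold, log2 2.29, SE 0.417, adjusted p = 0.0115). Cd68 stood at 19328 and 8019 against 51091 and 67051 (log2 2.23, adjusted p = 0.0193). S1pr1, a sphingosine-1-phosphate receptor gene, stood at 6450 and 3077 against 22818 and 11872 (log2 1.89, adjusted p = 0.0439). In low-proliferation bins Sirpa stood at 125860 and 149710 with PBS and at 143630 and 116130 with the combination, close to its dense bins under the combination.

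The genes that fell per dense bin included Stat3 itself. Stat3 stood at 261090 and 391510 molecules per 1000 dense bins with PBS, and at 56955 and 53564 with the combination (5.90-fold lower in the means, log2 -2.53, SE 0.453, limma adjusted p = 0.0115). By share of the molecules of dense bins it stood at -1.04 and did not pass (adjusted p = 0.169). In low-proliferation bins it stood at 27593 and 36986 with PBS and at 30122 and 47919 with the combination (log2 0.25, 95% interval -0.61 to 1.11, adjusted p = 0.781). A Stat3 difference per bin was therefore measured in dense bins and not in low-proliferation bins, and the change from class to class is tested further on.

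Gpnmb stood at 720470 and 379520 molecules per 1000 dense bins with PBS and at 40727 and 31154 with the combination (15.3-fold lower, log2 -3.88, SE 0.525, limma adjusted p = 0.0104). Ly6a, which encodes the stem cell antigen Sca-1, stood at 165930 and 386390 against 16500 and 38705 (log2 -3.32, SE 0.735, adjusted p = 0.0221). Vegfa, which encodes the angiogenic factor VEGF-A, stood at 101980 and 80909 against 19864 and 20833 (log2 -2.16, adjusted p = 0.0115). Tert, the telomerase reverse transcriptase gene, stood at -2.31, and Dnmt1, the maintenance DNA methyltransferase gene, at -2.08. The immune signalling genes Tnfrsf9 (4-1BB, a costimulatory receptor, -2.91), Stat6 (-1.80) and Nfkbia (an inhibitor of NF-kB, -1.47) fell as well, as did the lipoprotein receptor gene Scarb1 (-1.29). For each of these genes both combination sections lay below both PBS sections per bin. By share of the molecules of dense bins Ly6a alone was called lower. A dense bin held 4366 and 6161 molecules of all genes with PBS, and 1317 and 2576 with the combination. The part of this depth in the falls per bin was not tested. Scarb1, Ptprc and Fas are named to complete the lists of calls, after their values were seen. Il2 was also called lower, but it was listed at 0 in both combination sections and did not exceed the false-positive codes with PBS, so no fold is given.

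Because dense bins of the combination held fewer proliferation transcripts, the range of 100 to under 200 molecules was compared on its own, as a description. It held 186 and 144 bins with PBS and 19 and 72 with the combination. A bin of this range held 2450 and 3305 molecules of all genes with PBS, and 1312 and 2520 with the combination. Levels are given per bin only, and shares of molecules were not compared in this range. Stat3 stood at 130230 and 198980 molecules per 1000 of these bins with PBS and at 56368 and 54000 with the combination. Vegfa stood at 60371 and 45500 against 20158 and 20375, Sirpa at 28844 and 15514 against 113320 and 115890, and Adgre1 at 3091 and 1646 against 16579 and 21361. Per bin the groups did not overlap for any of these 4 genes, and the gap for Stat3 was smaller than over all dense bins.

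By share in dense bins the lists are read against the 19.8% of all 96 genes that were higher, on a panel made largely of immune genes. Of 8 TLR9 and NF-kB genes 4 rose by share (Tlr9, Tnf, Il6, Il12b), none fell and 4 did not pass, with a median of 2.49 where all genes had 0.85. Tlr9, the receptor for CpG DNA, stood at 556 and 233 CPM with PBS and at 3485 and 3469 with the combination (log2 3.27, SE 0.571, limma adjusted p = 0.00946). Tnf, an inflammatory cytokine gene, stood at 275 and 233 against 2691 and 1712 (log2 3.08, adjusted p = 0.00946). Il6 and Il12b did not exceed the false-positive codes in either PBS section. Per dense bin none of these 4 rose and Nfkbia, of the same list, fell.

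Of 8 chemokine and receptor genes 2 rose by share in dense bins (Ccl5, Ccl3) and 6 did not pass, a share near the 19.8% of all genes. Ccl5 stood at 2045 and 2921 CPM with PBS, and at 17320 and 48730 with the combination (13.3-fold, log2 3.57, SE 0.694, adjusted p = 0.00946). Per bin Ccl5 did not pass in any class. In low-proliferation bins it stood at 940 and 4649 molecules per 1000 bins with PBS and at 7085 and 37455 with the combination (log2 2.96, adjusted p = 0.148). Combination sections lay above PBS sections, but PBS 2 lay nearer to combination 1 than to PBS 1 on the log scale.

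Of 4 antigen-presentation genes, the costimulatory ligand genes Cd80 and Cd86 rose by share in dense bins, Cd80 from 180 and 111 to 2898 and 941 CPM, and 2 did not pass. Of 7 checkpoint genes 1 rose and 6 did not pass, which is below the 19.8% of all genes. It was Havcr2, which encodes TIM-3, at 1269 and 673 CPM with PBS and 5590 and 4618 with the combination (log2 2.46, adjusted p = 0.00946). The pan-leukocyte gene Ptprc, Csf2rb, Csf1r, Fas, Fabp5 and Msr1 were the other genes called by share. In no class did Pdcd1, Cd274, Cd3d or Cd4 pass on either scale.

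The test of the difference between classes was added after the data had been examined. For each section the log2 level in low-proliferation bins was subtracted from that in dense bins, and these differences were compared between groups. Levels were molecules per bin, and the part of the depth of the bins in the differences was not tested. The combination minus PBS difference was lower in dense than in low-proliferation bins for 32 of 95 genes (33.7%) and higher for 2 (2.11%), with a median of -1.38 over all genes. Gpnmb was foremost: its dense bins lay above its low-proliferation bins by 8.58 and 8.19 with PBS, and by 2.70 and 2.38 with the combination (difference -5.85, SE 0.237, limma adjusted p = 1.74e-05). Stat3 lay 3.24 and 3.40 above with PBS, and 0.92 and 0.16 with the combination (difference -2.78, SE 0.414, adjusted p = 0.00708). By share of molecules Stat3 was called in neither of these classes, and the classes were not compared on that scale. Msr1, higher in low-proliferation bins, differed by -2.69 (adjusted p = 0.0116), since its dense bins with PBS already lay 4.83 and 6.02 above the low class.

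For Sirpa and S1pr1 the difference ran the other way. For Sirpa the level in dense minus low-proliferation bins was -1.95 and -3.14 with PBS, and -0.34 and 0.0087 with the combination (difference 2.38, SE 0.591, adjusted p = 0.0248). S1pr1 differed by 2.03 (adjusted p = 0.0298). Adgre1 and Cd68 did not pass this test (0.65, adjusted p = 0.447, and 0.49, adjusted p = 0.458). Between intermediate and low-proliferation bins 1 of 93 genes was lower (1.08%) and none higher (0%), Gpnmb, at -2.92 (SE 0.384, adjusted p = 0.00366).

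**Figure D4:**
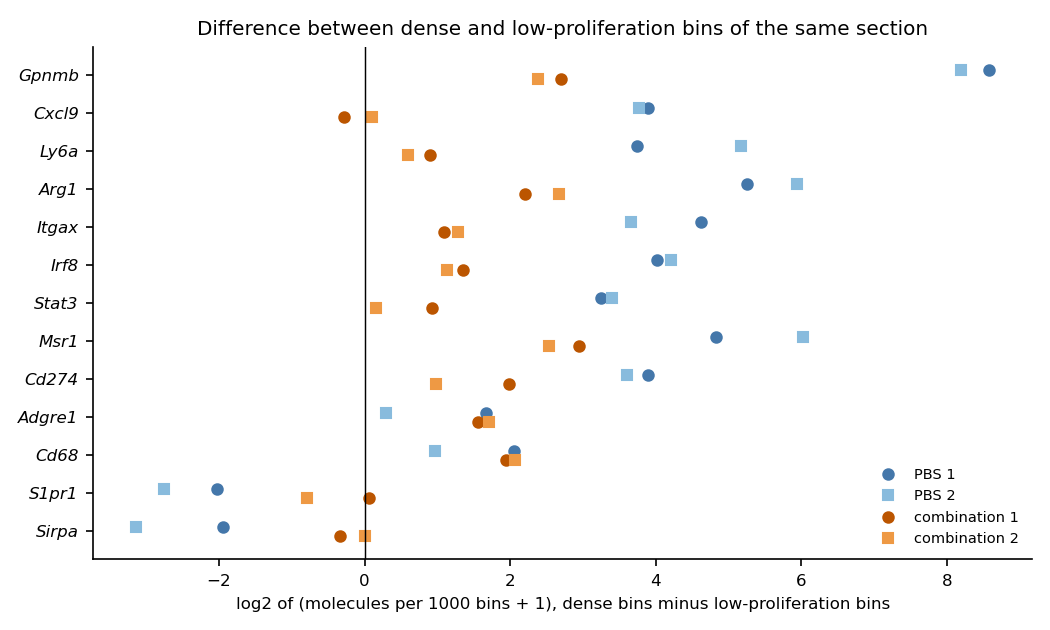
Log2 level in dense bins minus that in low-proliferation bins of the same section, for 13 genes, 1 point per section. The points of the combination sections lie closer to 0 than those of the PBS sections for Gpnmb (2.70 and 2.38 against 8.58 and 8.19), Stat3, Sirpa and most others shown, and lie among them or above for Adgre1 and Cd68.

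The whole-section change per bin can be rebuilt from the classes, which describes how the sums arise. With PBS levels in every class and the class mix of the combination, the median gene would stand at -0.96 on the log2 scale, with 92 of 100 genes below 0. With combination levels in every class and the PBS mix, it would stand at -0.15, with 53 genes below 0. For Gpnmb the class mix alone gave -2.92 and the levels alone -3.45. For Adgre1 the mix gave -0.36 and the levels 2.49, for Cd68 -0.55 and 2.07, and for Msr1 -1.80 and 1.25. In PBS sections 96.6% of Gpnmb molecules lay in dense bins, and under the combination 32.1% lay in low-proliferation bins.

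Combination 1 and combination 2 lay far apart in several genes. In low-proliferation bins 32 of 96 genes were more than 2-fold higher in combination 2 and 6 more than 2-fold lower, against 23 and 2 between PBS 2 and PBS 1. More than 8-fold, 6 genes were higher and 1 was lower in combination 2 than in combination 1, against 0 and 0 between the PBS sections. The lower one was Ly6d, at -3.40 on the log2 scale, named after its values were seen. Cxcl9, an interferon-gamma-induced chemokine gene, stood at 55.6 molecules per 1000 low-proliferation bins in combination 1 and 6811 in combination 2, with 342 and 1273 in PBS 1 and 2. Cxcl10, a chemokine gene of the same family, stood at 999 and 24416, with 4471 and 17866 with PBS. The PBS sections lay between the combination sections for both.

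Cd74, which encodes the MHC class II chaperone, stood at 17697 in combination 1 and 221980 in combination 2, with 26893 and 104750 in PBS 1 and 2. Cd274, which encodes PD-L1, stood at 4561 and 47973, with 3782 and 7094 with PBS. None of these passed between the groups in this class (adjusted p from 0.526 to 0.966 over Cd274, Cd74, Cxcl10 and Cxcl9). For Cd274 the combination sections were both above PBS 1, while only combination 2 was above PBS 2.

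**Figure D5:**
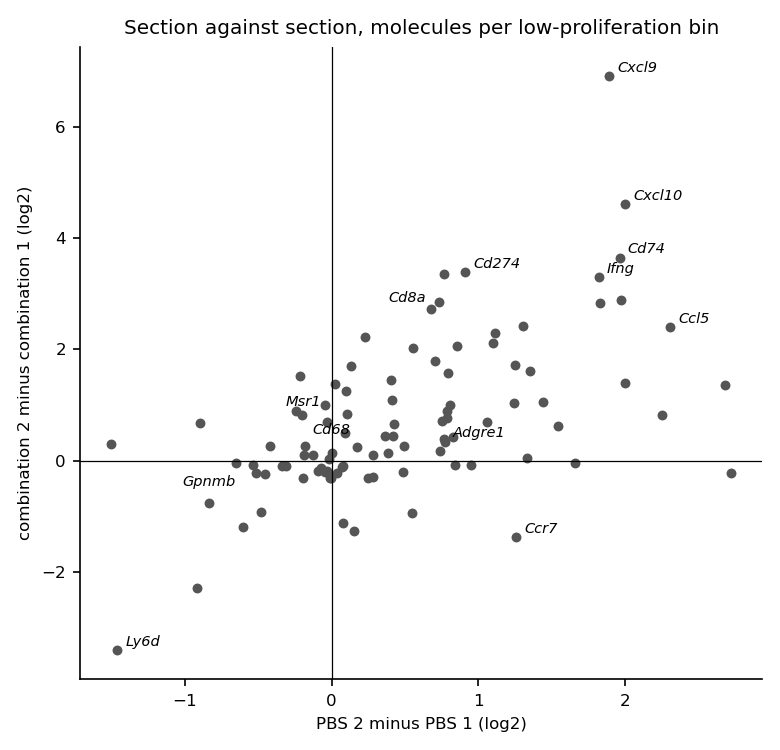
Log2 gap between the sections of a group in molecules per 1000 low-proliferation bins, PBS 2 minus PBS 1 on the x axis and combination 2 minus combination 1 on the y axis, 1 point per gene. Cxcl9 (6.91), Cxcl10 (4.61), Cd74 (3.65) and Cd274 (3.39) lie far above 0 between the combination sections, and Adgre1, Cd68, Msr1 and Gpnmb lie within 1 of 0 on that axis.

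Cd8a, the marker of cytotoxic T cells, followed the same division. Low-proliferation bins with at least 1 Cd8a molecule made up 14.4 and 14.1% with PBS (Wilson 95% intervals 12.5 to 16.5 and 12.1 to 16.5%), 17.7% in combination 1 (16.0 to 19.5%) and 44.6% in combination 2 (41.8 to 47.4%). These intervals cover counting error only. Bins with at least 5 made up 0.939 and 2.47% with PBS, 3.30% in combination 1 and 22.5% in combination 2. In intermediate bins 27.5 and 22.3% held Cd8a with PBS, 31.9% in combination 1 and 68.8% in combination 2. A low-proliferation bin held 637 and 764 molecules of all genes with PBS, 709 in combination 1 and 1284 in combination 2, and the part of this depth in the share of bins was not tested.

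Per 1000 low-proliferation bins Cd8a stood at 267 and 443 with PBS, 603 in combination 1 and 4366 in combination 2 (log2 2.23, SE 0.902, limma adjusted p = 0.210). The groups did not overlap but the gap between the combination sections was wider than that between the groups. The call of Cd8a given above was for its share across whole sections. The T cell receptor gene Cd3d had only 13.7 and 92.8 with PBS, and 62.7 and 164 with the combination, and in PBS 1 it did not exceed the false-positive codes. By distance from a dense bin Cd8a in combination 2 stood at 5667 per 1000 low-proliferation bins at 1 to 3 bins, 4506 at 4 to 9 and 2274 at 10 or more. In combination 1 it stood at 939, 1029 and 268. In PBS 1 and 2 the corresponding values were 322 and 397, 348 and 522, and 183 and 406, so that combination 1 lay within PBS at 10 or more bins. The richest 10% of low-proliferation bins held 63.7% of Cd8a molecules in combination 2 and 87.2% in combination 1, against 83.7 and 90.7% with PBS.

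Leaving out a section changed how many genes passed. Per low-proliferation bin the 4 genes all lost their call without PBS 1, PBS 2 or combination 2, with log2 differences that stayed between 1.32 and 4.07 over all settings, and 13 genes passed without combination 1. In dense bins no gene passed by share without PBS 2 or combination 1, while none passed per bin without combination 1 and 2 passed without PBS 2. For dense minus low-proliferation bins 20 genes passed without PBS 2, 13 without combination 1 and 6 without combination 2, in place of 34.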

How the data were processed

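The authors deposited 1 list of molecules per section with pixel positions and the target of each molecule. The spot caller is not given in the sources used here, nor is the pixel size. Seurat 4.2.0 is named in the submitters' processing notes without a role. Molecules were tallied per gene, leaving out the 28 codes that start with FP, by section and by bin of 360 pixels.

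Levels were log2 of CPM (gene molecules per 1000000) or of molecules per 1000 bins, each with a pseudocount of 1. They were fitted with limma 3.58.1 in R 4.3.3 (lmFit, eBayes with trend) as 4 group means over 8 sections with 4 residual degrees of freedom. Genes averaged at least 10 molecules per section. Benjamini-Hochberg adjustment ran over all genes tested, and an adjusted p under 0.05 was a call. The fits were tested on simulated data. Mki67 and Birc5 were left out of fits within classes.

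A fold in the text is the ratio of group means. Genes named are up to 12 each way per fit with the largest difference among calls without overlap, 10 genes of the study's targets and cell markers, and the 3 most abundant of each list. The comparison, its classes and the gene lists were chosen with earlier results of these data known. Some genes of the panel are not reported here. The fits across classes were added after the data had been examined.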

Additional observations from a re-analysis of the deposited data

Results flagged for a closer look

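The combination minus PBS difference in molecules per bin was not the same in dense as in low-proliferation bins for 34 of 95 genes. Of all 95, 33.7% were lower and 2.11% higher, by limma's test of that difference with Benjamini-Hochberg adjustment. The median over all genes was negative too. A dense bin held 4366 and 6161 molecules of all genes with PBS and 1317 and 2576 with the combination. The part of this depth in the count was not tested. On the log2 scale the difference of differences was -5.85 for Gpnmb, -3.92 for the chemokine gene Cxcl9, -3.71 for Ly6a, -3.19 for Tnfrsf9, -3.15 for Arg1, -2.99 for Tgfbi, -2.96 for the dendritic cell integrin gene Itgax and -2.88 for Irf8, a transcription factor of myeloid cells. It was -3.45 for Ccr7 and -2.81 for Pdcd1lg2, both picked out after their values were seen. The value for Il2, -4.84, is set by the pseudocount and measures no change, since Il2 did not exceed the false-positive codes in any of the 4 sections in either class. It was 2.38 for Sirpa and 2.03 for S1pr1. Between intermediate and low-proliferation bins 1 gene differed, Gpnmb, at -2.92.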

How the results depend on the processing

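Counts of called genes moved with the limits of the classes, the bin size, the sections fitted and single sections. Dense bins of the combination rest on 22 and 78 bins, which limits every dense value. Across whole sections the 18 calls by share became 5 with PBS and combination sections only and 11 with median-of-ratios scaling (4 higher and 7 lower), and the 4 calls per bin became 0 with PBS and combination sections only. In low-proliferation bins the 1 call by share became 0 with median-of-ratios scaling, 180-pixel bins or a low limit of 5. The 4 calls per bin became 1 without the eBayes trend or with a low limit of 5, and 0 with PBS and combination sections only. In intermediate bins the 1 call by share became 0 without the trend, with voom, with a low limit of 20 or a dense limit of 50, 6 with 180-pixel bins and 18 with a dense limit of 200. The 1 call per bin became 0 without the trend, 5 with 720-pixel bins, 2 with a shifted grid or a dense limit of 50, and 3 with a dense limit of 200. In dense bins the 20 calls by share became 6 with a dense limit of 200, and the 17 per bin became 8 without the trend (2 higher and 6 lower) or with a dense limit of 200 (0 higher and 8 lower). For dense minus low-proliferation bins the 34 calls became 1 with a dense limit of 200. For intermediate minus low-proliferation bins the 1 call became 8 with PBS and combination sections only, 19 with 180-pixel bins, 6 with a dense limit of 200, and 0 with 720-pixel bins or a dense limit of 50. The cause was not tested.

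With a dense limit of 200, which leaves 3 and 6 dense bins in the combination, values reversed for Il12b by share in dense bins (-4.54, limma adjusted p = 0.332), for Ly6g (-2.64, adjusted p = 0.0324) and for the number of patches (-3.5 against 27.5). Dense bins of 720 pixels gave no value, since combination 1 had none.

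Leaving out 1 section gave 6 to 31 calls in whole sections by share and 2 to 20 per bin, 0 to 2 and 0 to 13 in low-proliferation bins, 0 to 3 and 0 to 8 in intermediate bins, 0 to 23 and 0 to 18 in dense bins, 6 to 39 for dense minus low-proliferation bins and 0 to 8 for intermediate minus low-proliferation bins. The share of dense bins differed by -42.7 to -30.0 points, that of intermediate bins by 2.78 to 33.3 and that of low-proliferation bins by 1.95 to 34.7.

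With the replicate block, 9 genes were called per bin in whole sections, 24 by share, and 11 per bin in dense bins. Sections of the same number deviated together between PBS and combination (r from 0.153 to 0.589 over the class and whole-section tallies) but not in every pair of groups, so the numbers were not taken as pairs.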
